A study of Oryctolagus cuniculus with 3 samples.

Results

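Aminoacyl-tRNA synthetases of the cytosol join each amino acid to its transfer RNA and so supply the ribosome. The set described here was given as a list of 10 genes: WARS1, EPRS1, IARS1, LARS1, MARS1, AARS1, GARS1, NARS1, SARS1 and TARS1. The rule took every listed gene, under its present or older symbol, that had a non-control probe in the value table, and used no measured value. It found 9 of the 10 genes through 18 of the 22839 probes tested. TARS1 was found through a RefSeq transcript in the list of accessions of its probes, not in their main identifier. No named probe of the array carried GARS1, the glycyl enzyme, so that gene was not analysed here. No named probe of a listed gene lay outside the value table, so the authors' selection removed no named probe of these genes. Probes without a name could not be checked. Of all probes tested, 14319 carried a symbol, for 6514 genes.

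Rabbit morulae were recovered on day 3 of development, slow-frozen or vitrified, and placed in recipient does; embryos were collected on day 6. The samples share everything the labels state except the way of storage and the dye, while no source used here gives the strain, the age of the does or the number of embryos per RNA sample. Vitrification passed the morulae through dimethyl sulphoxide and ethylene glycol at 12.5% each for 2 min and at 20% each for 30 s before liquid nitrogen; for slow freezing no protocol was given. Each of 3 Agilent arrays held 1 frozen and 1 vitrified sample, and the labels call the arrays biological replicates. Every value below is a log2 ratio of frozen over vitrified unless it is called an intensity, so that a negative ratio means less signal after slow freezing.

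The synthetases fall into classes I and II, which differ in the fold of the catalytic domain. WARS1, IARS1, LARS1 and MARS1 are class I enzymes, as is the glutamyl part of the bifunctional EPRS1, and AARS1, GARS1, NARS1 and SARS1 are class II enzymes, as is TARS1. EPRS1, IARS1, LARS1 and MARS1 are held with other synthetases in the multisynthetase complex, whereas the others listed act outside it. Many cytosolic synthetase genes are transcribed under ATF4, the factor made when the integrated stress response senses uncharged transfer RNA or misfolded protein, and WARS1 is also an interferon-induced gene.

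The probes are 60 bases long, and the sequences below, copied from the deposited scanner files, show which stretch of each messenger was read. The first set holds the brightest probe of 4 genes and, for WARS1, the dimmer of its 2 probes, whose ratios are compared with those of the brightest one below.
AARS1: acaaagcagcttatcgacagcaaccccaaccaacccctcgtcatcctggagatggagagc
IARS1: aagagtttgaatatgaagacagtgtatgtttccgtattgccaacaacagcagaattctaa
EPRS1: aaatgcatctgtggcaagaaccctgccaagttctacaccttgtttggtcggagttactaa
LARS1: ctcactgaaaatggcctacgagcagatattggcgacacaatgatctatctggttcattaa
WARS1 at 897: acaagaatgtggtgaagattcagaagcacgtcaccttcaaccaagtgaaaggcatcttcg
The next set shows probes of the same gene that overlap, with the bases shared with another probe of that gene in capitals.
MARS1 at 1730: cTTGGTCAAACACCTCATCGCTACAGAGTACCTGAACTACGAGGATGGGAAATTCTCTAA
MARS1 at 1732: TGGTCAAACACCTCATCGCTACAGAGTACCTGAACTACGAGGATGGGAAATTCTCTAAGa
NARS1 at 1427: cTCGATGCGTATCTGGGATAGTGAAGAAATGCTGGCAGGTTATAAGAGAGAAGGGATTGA
NARS1 at 1428: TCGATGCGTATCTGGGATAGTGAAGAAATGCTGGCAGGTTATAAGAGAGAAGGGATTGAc
TARS1 at 1593: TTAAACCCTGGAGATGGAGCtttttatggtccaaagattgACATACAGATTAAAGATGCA
TARS1 at 1633: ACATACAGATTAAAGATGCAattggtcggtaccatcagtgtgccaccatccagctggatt
Numbers after the gene are the first base of the probe in the transcript, as the files give it. The MARS1 probes and the NARS1 probes share 59 of 60 bases with a neighbour, so they repeat 1 measurement, and the TARS1 probes were tiled with overlaps of 19 or 20 bases. In the files' coordinates, with no build named in the sources used here, the probe of AARS1 lies at chr5:29212678-29212737 on the forward strand and that of IARS1 at chr1:70067643-70067702 on the reverse strand. The EPRS1 probe shown lies at chr16:53110831-53110890 (forward), that of LARS1 at chr3:28077338-28077397 (reverse) and the NARS1 probe at 1427 at chr9:98140239-98140298 (reverse). For TARS1 the probe at 1633 lies at chr11:55215959-55216018 (forward). Its neighbour at 1593 spans 213 genomic bases with 60 of its own, and so is split over a gap in the genome. No coordinates accompanied the probes of MARS1 and WARS1, and no annotation of that build was used.

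Before the results, the arrays themselves differed. Frozen samples carried Cy5 on replicates 1 and 3 and Cy3 on replicate 2. Over all probes tested, the ratios of replicates 1 and 2 correlated at -0.36, those of replicates 1 and 3 at -0.01 and those of replicates 2 and 3 at 0.48. The direction of replicate 2 is likely, not stated: 10 spike-in probes correlated at -1.0 between it and each other array and at 0.99 between replicates 1 and 3. Limma called 0 of the 22839 probes at an adjusted p under 0.05 (0%), while 1020 (4.47%) had an unadjusted p under 0.05, 599 of them with a mean below 0 and 421 above. The number of arrays limits the precision, and with 3 arrays the smallest p that exact sign flips allow is 0.25 (2-sided). In bulk samples, fewer cells of a type and less RNA per cell cannot be told apart.

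The comparison asks whether the synthetase messengers differed in the day 6 embryo after the 2 ways of storage. By the brightest probe of each gene, the mean log2 ratio was below 0 for 9 of 9 measured synthetases, from -0.40 for WARS1 to -0.023 for LARS1, with a median of -0.14. Over all probes tested 49.1% had a mean below 0. Over the 6514 named genes, by their brightest probes, it was 53.3%, and the median of the means was -0.013. The median of the 9 means was -0.09 without replicate 1, -0.24 without replicate 2 and -0.28 without replicate 3, and 0.007 on raw mean signals of replicates 1 and 3. None of the 9 synthetases passed the test, each with an adjusted p of 1.00 in limma, and 0 of 9 had an unadjusted p under 0.05. WARS1, EPRS1, IARS1 and TARS1 were below 0 on all 3 arrays, 4 of 9 against 10.9% of all probes and 11.6% of named genes. Above 0 on all 3 were 0 of 9, against 11.7% of all probes and 10.8% of named genes. The means hide a difference between arrays: 5 of the 9 were at least 1.5-fold lower in the frozen sample on replicate 1. On that array 10.4% of all probes and 13.7% of named genes were as low. On replicate 2 the count was 0 of 9 (4.03% of probes) and on replicate 3 also 0 of 9 (5.07% of probes).

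**Figure D1:**
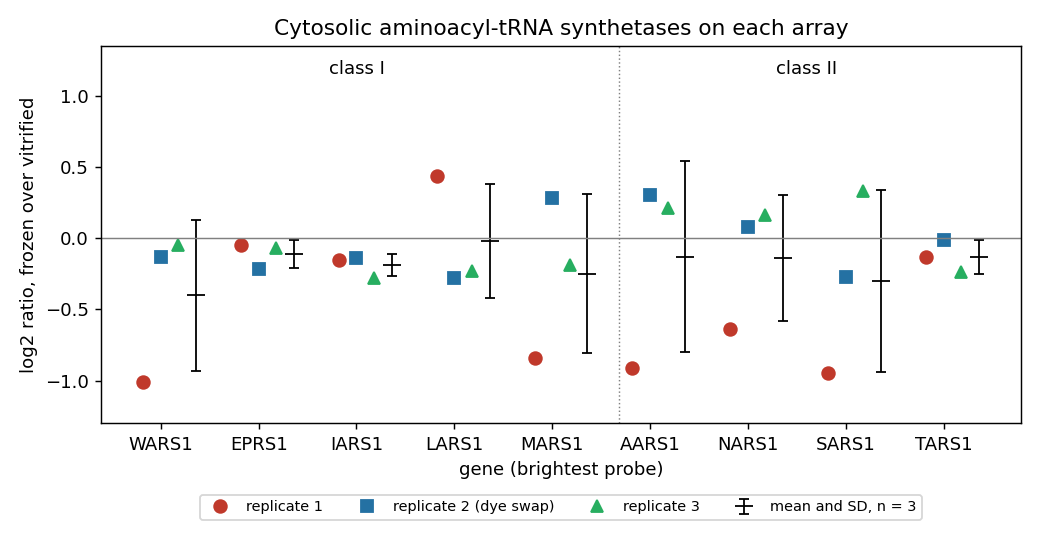
Log2 ratio of frozen over vitrified (y axis) of the brightest probe of each measured synthetase (x axis) on each of 3 arrays; the black bar is the mean with its SD. Replicate 1 lies between -1.01 and -0.64 for WARS1, MARS1, AARS1, NARS1 and SARS1, while every ratio on replicates 2 and 3 lies between -0.28 and 0.33.

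Among the class I enzymes, WARS1, which charges tryptophan, had the lowest mean. Its brightest probe read a processed intensity of 873 in the frozen and 1758 in the vitrified sample on replicate 1, and of 1707 and 1762 on replicate 3. The log2 ratios were -1.01, -0.13 and -0.046 on replicates 1, 2 and 3, a mean of -0.40 ± 0.53 (SD, n = 3) or 1.32-fold lower. On replicate 1 alone the frozen signal was 2.01-fold lower, and the SD over arrays exceeded the size of the mean. Without replicate 1 the mean was -0.09.

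IARS1, the isoleucyl enzyme, had the ratios of smallest SD among the 9. Its intensities were 4265 (frozen) and 4738 (vitrified) on replicate 1 and 3740 and 4542 on replicate 3. The 3 ratios were -0.15, -0.14 and -0.28, a mean of -0.19 ± 0.077 (SD, n = 3) or 1.14-fold lower. All arrays were on the same side of 0, but limma, whose SE for this gene was 0.13, gave an adjusted p of 1.00.

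EPRS1, which charges both glutamate and proline, gave intensities of 8235 (frozen) and 8522 (vitrified) on replicate 1 and 8321 and 8722 on replicate 3. Its ratios of -0.049, -0.22 and -0.068 had a mean of -0.11 ± 0.10 (SD, n = 3). All arrays were below 0, with the frozen signal 1.03-fold lower on replicate 1 and 1.05-fold lower on replicate 3.

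LARS1, the leucyl enzyme, which also serves as a leucine sensor, was higher in the frozen sample on replicate 1. Its intensity there was 7559 in the frozen sample against 5563 in the vitrified one, and 5046 against 5927 on replicate 3. The ratios were 0.44, -0.28 and -0.23, a mean of -0.023 ± 0.40 (SD, n = 3). The mean was 0.11 without replicate 2, 0.081 without replicate 3 and -0.26 without replicate 1.

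MARS1, whose product also charges the initiator transfer RNA with methionine, read 1932 (frozen) and 3454 (vitrified) on replicate 1 and 2369 and 2703 on replicate 3. Its ratios were -0.84, 0.28 and -0.19, a mean of -0.25 ± 0.56 (SD, n = 3). Replicates 1 and 2 were on opposite sides of 0, and without replicate 1 the mean was 0.046.

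Among the class II enzymes, AARS1, NARS1 and SARS1 were low on replicate 1 and not on replicate 3. AARS1, the alanyl enzyme, read 3506 (frozen) and 6578 (vitrified) on replicate 1 but 5740 and 4976 on replicate 3. Its ratios were -0.91, 0.30 and 0.21, a mean of -0.13 ± 0.67 (SD, n = 3), so that 2 of 3 arrays were above 0. NARS1, which charges asparagine, read 1997 and 3118 on replicate 1 and 1992 and 1789 on replicate 3, for ratios of -0.64, 0.081 and 0.16 and a mean of -0.14 ± 0.44 (SD, n = 3). Without replicate 1, the mean of AARS1 was 0.25 and that of NARS1 0.12, both above 0.

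SARS1, the seryl enzyme, was the dimmest of the measured probes, with intensities of 37.7 (frozen) and 72.9 (vitrified) on replicate 1 and 58.6 and 46.5 on replicate 3. Its ratios were -0.95, -0.27 and 0.33, a mean of -0.30 ± 0.64 (SD, n = 3). The 3 arrays spanned both sides of 0, and the mean without replicate 1 was 0.03. The scanner's own error of its log2 ratio was 0.28 on replicate 1 and 0.25 on replicate 3, the highest among the 9 genes, where the lowest was 0.20 on each array.

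TARS1, the threonyl enzyme, read 3235 (frozen) and 3549 (vitrified) on replicate 1 and 3420 and 4043 on replicate 3. The ratios of its brightest probe were -0.13, -0.011 and -0.24, a mean of -0.13 ± 0.12 (SD, n = 3). All 3 were below 0, replicate 2 by 0.011 only.

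In the order of their means the genes ran WARS1, SARS1, MARS1, IARS1, NARS1, AARS1, TARS1, EPRS1 and LARS1. Neighbours in this order differed by at most 0.10, less than the SD of at least 1 gene of each pair. On replicate 1, 6 of 9 ratios lay more than 2 scanner errors from 0 (28.8% of all probes did): WARS1, AARS1, MARS1, NARS1 and SARS1 below and LARS1 above. On replicate 3 it was 0 of 9 (14% of all probes). Scanner errors cover the spot, not the embryos. The 5 genes that were at least 1.5-fold lower on replicate 1 included 4 of the 5 measured genes outside the multisynthetase complex, whose median was -0.91 there, and 1 of the 4 inside it, whose median was -0.10. On replicate 3 the medians were 0.16 outside and -0.21 inside the complex, in the opposite order. Over the 3 arrays the median of the means was -0.14 outside and -0.15 inside. By class, the medians of the means were -0.19 for 5 class I and -0.13 for 4 class II enzymes. None of these splits was tested.

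For 6 of the genes, several probes could be compared on the same arrays. The WARS1 probes start 970 bases apart, at 897 and 1867. The first read 272 (frozen) and 543 (vitrified) on replicate 1 and 420 and 417 on replicate 3. Its ratios were -1.0, 0.29 and 0.0086, so it differed from the brightest probe by 0.012 on replicate 1 and by 0.43 on replicate 2, where the pair lay on opposite sides of 0. The low WARS1 ratio of replicate 1 was thus read at both places, and the negative ratio of replicate 2 at 1 of them. The EPRS1 probes differed by 0.30 on replicate 1, where the probe at 4354 gave -0.35, and both were below 0 on all arrays. LARS1 had 0.35 and 0.44 on replicate 1 at its 2 places. The 3 MARS1 probes spanned 0.058, 0.018 and 0.10 on replicates 1, 2 and 3, and the NARS1 pair at most 0.077. For TARS1, 3 of 4 probes were above 0 on replicate 2, at 0.11 to 0.15, so the count of genes below 0 on every array depends on the probe. Taking the mean over all probes of each gene, it was 2 of 9 (EPRS1 and IARS1) in place of 4.

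**Figure D2:**
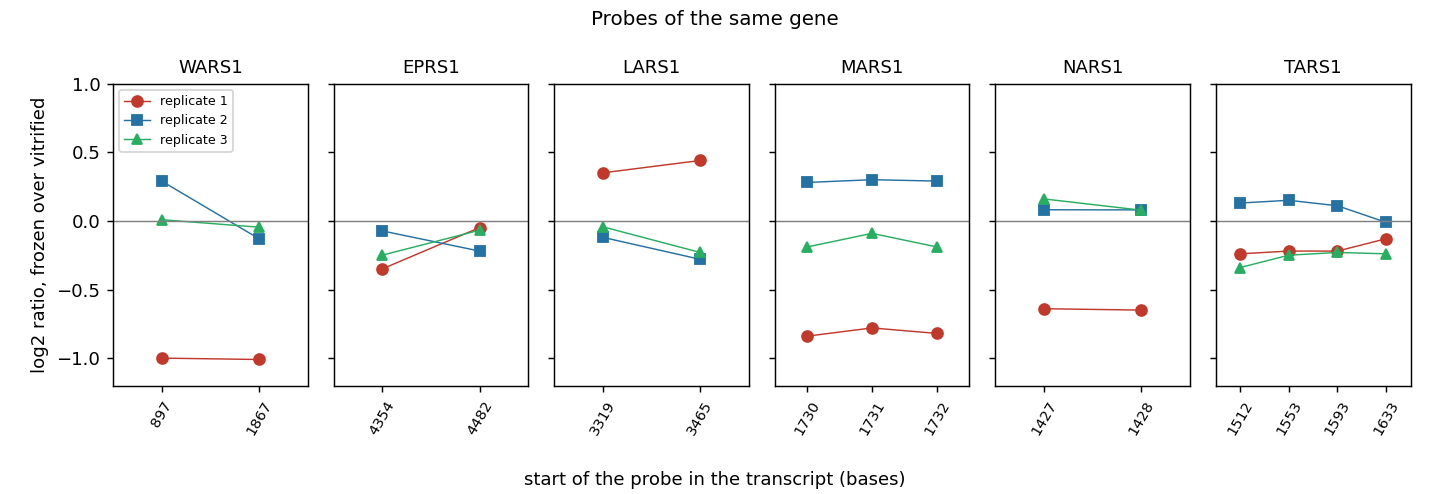
Log2 ratio of frozen over vitrified (y axis) of every probe of the 6 synthetases with over 1 probe, ordered by its start in the transcript (x axis, bases). The WARS1 probes meet at -1.0 and -1.01 on replicate 1 and part on replicate 2, at 0.29 and -0.13; the near-identical MARS1 and NARS1 probes stay together.

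Properties of the probes that moved with replicate 1 are given here as values, and their part in the synthetase ratios was not tested. Across all 22839 probes, the ratio of replicate 1 correlated with the share of G and C bases in the probe at r = -0.16, against 0.04 on replicate 2 and -0.0025 on replicate 3. Across the 9 brightest synthetase probes, which share the arrays and labelling, r was -0.47, 0.61 and 0.53. Probes with 45% G and C, as in WARS1, MARS1 and NARS1, had a median of -0.095 on replicate 1. Of those 7863 probes, 2.33% lay below WARS1, 5.15% below MARS1 and 11.1% below NARS1. AARS1, at 55% G and C, lay 0.72 below the median of -0.19 of probes with its share, and SARS1 lay 0.94 below that of -0.0088. Against probes of the same share, 7 of 9 synthetases were lower on replicate 1, with EPRS1 and LARS1 above. For the 5 genes that were at least 1.5-fold lower, the gap to that median was 0.55 (NARS1) to 0.94 (SARS1). Of 211 transcripts read at places at least 500 bases apart, the probe nearer the 3′ end exceeded the other by a median of 0.24 on replicate 1, against -0.13 on replicate 2 and -0.055 on replicate 3; for WARS1 the same difference was -0.012, -0.43 and -0.055.

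**Figure D3:**
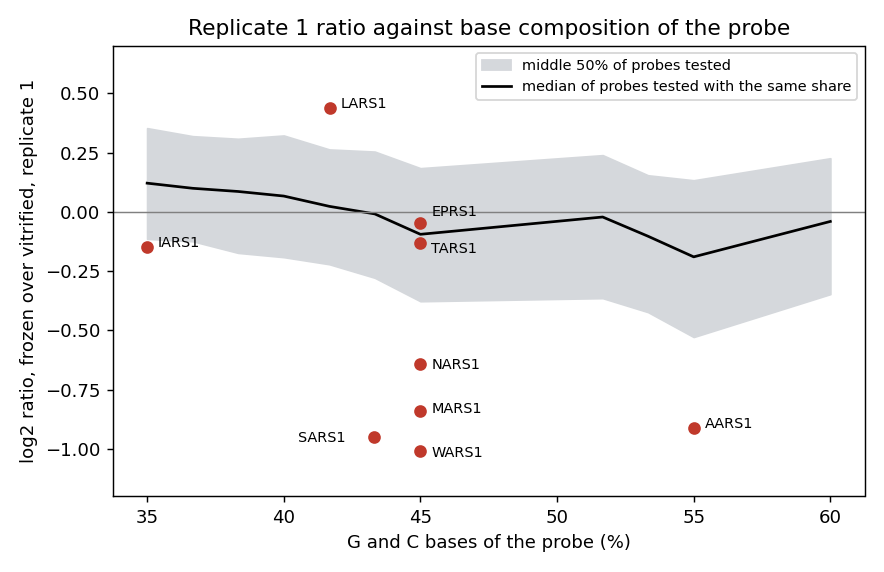
Log2 ratio of frozen over vitrified on replicate 1 (y axis) against the percentage of G and C bases in the probe (x axis) for the brightest probe of each synthetase (points), over the median (line) and the middle 50% (band) of all probes with the same percentage, drawn where at least 100 probes share it. WARS1, MARS1, AARS1, NARS1 and SARS1 lie well below the band, IARS1 lies at its lower edge and LARS1 lies above it.

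Marker genes of the tissues in the embryo had ratios that differed between arrays, and their part in the synthetase ratios was not tested. All 26 measured marker genes were well above background on both scanner arrays and 0 were at 0. All 22839 probes tested were well above background too, so this does not show that a marker was bright. HAND1 read 32.5 (frozen) and 36.4 (vitrified) on replicate 1. Measured were 6 of 9 listed trophoblast, 11 of 14 hypoblast, 4 of 8 epiblast, 3 of 8 uterine and 2 of 7 blood markers. The other listed markers were not read. For the counts that follow, 51.4%, 47% and 47.2% of all probes were below 0 on replicates 1, 2 and 3. Among named genes the shares were 58.4%, 43% and 46.7%. Of the 6 measured trophoblast markers, 5 were below 0 on replicate 1, 1 on replicate 2 and 2 on replicate 3. Their summed intensity was 14124 (frozen) and 21867 (vitrified) on replicate 1 and 21597 and 21452 on replicate 3. KRT8, a keratin named after its values were seen, made up 11081 and 18501, then 17298 and 18495, of it, and the median ratio of the list on replicate 1 was -0.24. The summed intensity of the 9 synthetases was 31639 and 37353, then 32393 and 34510. GATA3, a trophoblast transcription factor, had ratios of -0.04, 0.56 and 0.76, and HAND1, another, -0.16, -0.32 and -0.35. Hypoblast markers had another profile: 6 of 11 were below 0 on replicate 1, 11 on replicate 2 and 10 on replicate 3, with summed intensities of 7698 and 8564 on replicate 1 and 7567 and 17349 on replicate 3. FN1, fibronectin, averaged -0.78 ± 0.33 (SD, n = 3) and COL4A2, a basement membrane collagen, -0.58 ± 0.19 (SD, n = 3). FN1 made up 3628 and 5142, then 3691 and 8160, of the sums. The markers above 0 on replicate 1 were APOA1, RBP4, DKK1, COL4A1 and LAMC1, at 0.51, 0.66, 0.59, 0.30 and 0.086. On replicate 3 they were at -2.20, -1.76, -1.37, -1.06 and 0.44. These markers were named after their values were seen. Of 4 epiblast markers, 4, 3 and 2 were below 0 on replicates 1, 2 and 3. Their sums were 8326 and 12307, then 6751 and 12487. POU5F1, the pluripotency factor, averaged -0.96 ± 0.58 (SD, n = 3). It made up 5319 and 8962, then 3154 and 9711, of the sums. ETV4, an ETS-family factor, averaged -0.58 ± 0.49 and was dim, at 42 and 86.2 on replicate 1. DPPA5 was at -0.15, 0.13 and 0.42 and LIN28A at -0.023, -0.36 and 0.033. Both were named after their values were seen. From the recipient, 2 of 3 uterine markers were below 0 on replicate 1, 2 on replicate 2 and 1 on replicate 3. They summed to 704 and 1033 on replicate 1, of which SCGB1A1, uteroglobin, was 567 and 900, and to 252 and 264 on replicate 3. HOXA11 was at -0.30, -0.0089 and -1.0, SCGB1A1 at -0.67, -0.62 and 0.13, and DES at 0.18, 0.04 and 0.17; the last 2 were named after their values were seen. The 2 blood markers summed to 211 and 162, then 303 and 260, with S100A9 at 0.54, -0.15 and 0.25.

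The remaining cytosolic synthetases charge the other amino acids. Of 10 listed for other amino acids, 7 were measured and 7 of 7 means were below 0, from -0.26 to -0.073, with a median of -0.10. A mean below 0 was found for 49.1% of all probes and 53.3% of named genes. On replicate 1, 3 of the 7 were at least 1.5-fold lower, against 10.4% of all probes and 13.7% of named genes. These were YARS1 (tyrosyl) at -0.96, HARS1 (histidyl) at -0.76 and QARS1 (glutaminyl) at -0.70. On replicates 2 and 3 it was 0 of 7, against 4.03% and 5.07% of all probes. HARS1 had 0.11 and -0.023 on replicates 2 and 3, a mean of -0.22 ± 0.47 (SD, n = 3). RARS1, the arginyl enzyme, had 0.012, -0.43 and -0.13, a mean of -0.18 ± 0.23. Over all 16 measured cytosolic synthetases, 16 means and 14 ratios of replicate 1 were below 0, 8 by at least 1.5-fold; 9 were below 0 on replicate 2 and 12 on replicate 3. Of all probes, 51.4%, 47% and 47.2% were below 0 on replicates 1, 2 and 3, and of named genes 58.4%, 43% and 46.7%. YARS1 and QARS1 were named for their values on replicate 1.

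Scaffold proteins of the multisynthetase complex, AIMP1, AIMP2 and EEF1E1, had means of -0.14, -0.051 and -0.0037. AIMP1 was at -0.19, -0.20 and -0.018, below 0 on all arrays. Mitochondrial synthetases, which charge transfer RNA inside the organelle, were mixed: of 17 listed, 12 were measured and 7 had a mean below 0. Of all probes, 49.1% had a mean below 0. The median of the 12 means was -0.012, and 0 of 12 were below 0 on all arrays (10.9% of all probes were). On replicate 1, 3 of 12 were at least 1.5-fold lower (10.4% of all probes were). The median of the 12 was -0.27 on replicate 1, against 0.19 on replicate 2 and 0.0093 on replicate 3. TARS2 had -0.63, 0.34 and -0.17, and EARS2 -0.50, 0.22 and -0.13.

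Other proteins handle transfer RNA before or after charging. Of 9 ligases, trimming and editing proteins, all measured, 7 had a mean below 0 (49.1% of all probes did). Their means had a median of -0.038. On replicates 1, 2 and 3 the medians were -0.44, 0.24 and 0.054. AARSD1, which clears transfer RNA mischarged with serine in place of alanine, had -0.56, -0.041 and 0.0022. SSB, the La protein that binds new transfer RNA precursors, was above 0 on all arrays, at 0.065, 0.16 and 0.24. Of 6 listed elongation factor genes, 5 were measured, with means from -0.18 to -0.0052, and EEF2 was not. The measured genes encode the factor that carries charged transfer RNA to the ribosome and the exchange factor that reloads it with GTP. EEF1G and EEF1D belong to the exchange factor. EEF1G had -0.88, 0.40 and -0.0072, and EEF1D 0.09, -0.22 and -0.42.

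Of the listed kinases and factors of the integrated stress response, 13 of 22 were measured, and ATF4 itself was not. Most of the 13 act upstream of ATF4, while CEBPG is a partner of it. Means were below 0 for 8 of the 13, against 49.1% of all probes. The median of their means was -0.082. That median was 0.062 without replicate 1 and -0.014 without replicate 2. EIF2AK2, the kinase that senses double-stranded RNA, averaged 0.22 ± 0.27 (SD, n = 3), and EIF2S2, a subunit of the initiation factor that these kinases act on, -0.15 ± 0.16. By the means of 3 arrays, targets of ATF4 outside the synthetases had list medians further from 0 than the -0.14 of the synthetases. For transporters this depended on the arrays. Their median on replicate 1 was -0.086, against -0.64 for the synthetases. It was also nearer 0 without replicate 2 (-0.21 against -0.24), without replicate 3 (-0.24 against -0.28) and with replicate 2 turned (-0.029 against -0.12). Amino acid synthesis and folate genes had a median of -0.61 over 7 measured of 12, or -0.36 with the sign of replicate 2 turned. Of the 7, 4 were below 0 on all arrays (10.9% of all probes were). PHGDH, the first enzyme of serine synthesis, averaged -1.92 ± 0.20 (SD, n = 3) with an adjusted p of 0.55 in limma, and PSAT1, the next enzyme, -1.68 ± 0.60 with 0.81. PHGDH was dim, reading 56.4 (frozen) and 181 (vitrified) on replicate 1 and 60.5 and 251 on replicate 3. Amino acid transporters had a median of -0.25 over 4 of 10, or -0.029 with replicate 2 turned, with SLC1A5, a glutamine carrier, at -0.70 ± 0.30 (SD, n = 3) and SLC3A2, the shared heavy chain of several carriers, at -0.26 ± 0.19. Stress targets had a median of -0.94 over 7 of 11, with 5 below 0 on all arrays (10.9% of all probes were). CHAC1, which breaks down glutathione, was at -1.28, -0.80 and -1.62, and STC2, a secreted glycoprotein, at -1.10, -0.45 and -1.51. Both were dim: on replicate 1 CHAC1 read 30.5 (frozen) and 74 (vitrified), and STC2 81.4 and 175. XPOT, the brightest stress target, named after its values were seen, had 0.19, -0.23 and -0.091. The summed intensity of the list gave log2 ratios of -0.05 on replicate 1 and -0.36 on replicate 3.

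Set beside these, the 9 synthetases had 0 means at least 1.5-fold lower, a size that 1.87% of all probes reached, so that 0 of 9 is near the background. It was 4 of 7 for amino acid synthesis genes, 1 of 4 for transporters and 4 of 7 for stress targets. On replicates 1, 2 and 3 the synthetase medians were -0.64, -0.13 and -0.068. Those of the stress targets were -1.01, -0.33 and -1.19, and those of the amino acid synthesis genes -0.91, -0.55 and -0.52. Transporter medians were -0.086, -0.34 and -0.28, nearer 0 than the synthetases on replicate 1 and further from it on replicates 2 and 3. The difference between lists was not tested, and no gene of any list passed the limma threshold, with adjusted p from 0.55 to 1.00 over 94 genes.

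**Figure D4:**
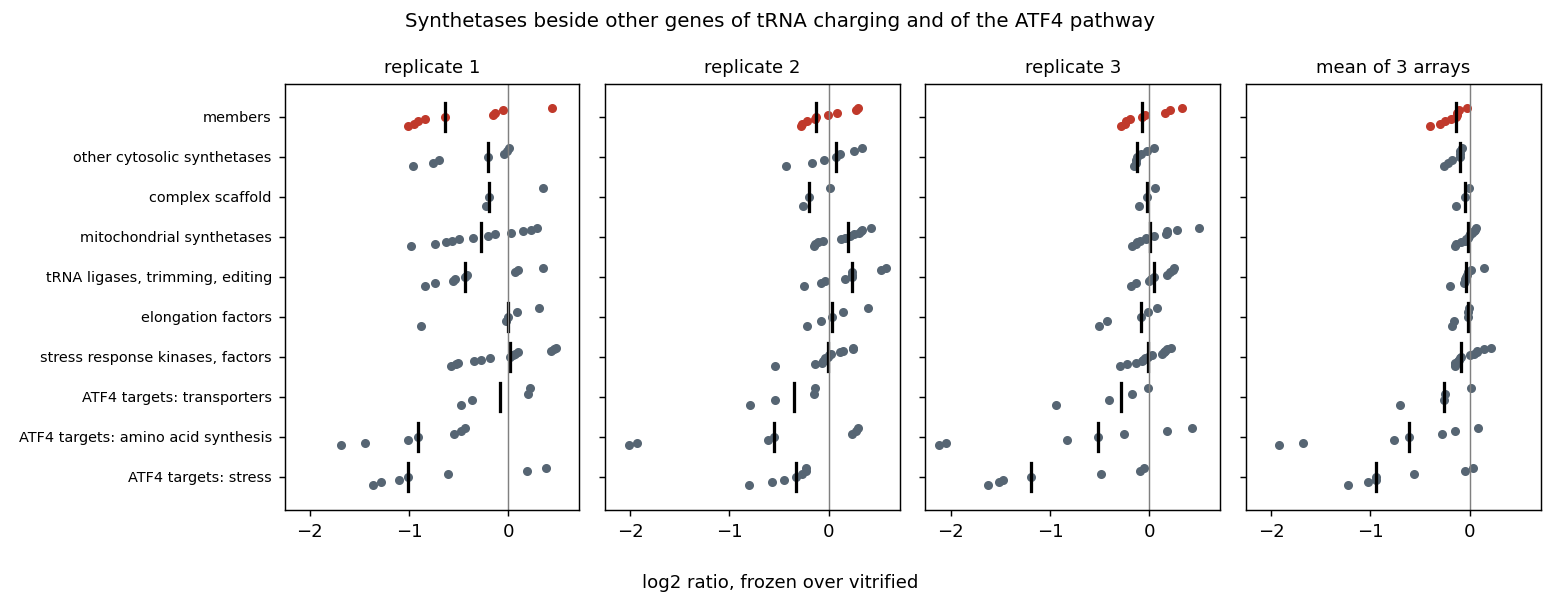
Log2 ratio of frozen over vitrified (x axis) of each measured gene (points) in the synthetase set (red) and in 9 other lists (grey) on each array and as the mean of 3 arrays; black bars are list medians. The synthetase median moves from -0.64 on replicate 1 to -0.13 and -0.068 on replicates 2 and 3, while the stress targets of ATF4 lie at -1.01, -0.33 and -1.19.

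Without replicate 1, limma called 796 probes (3.49%), 553 lower and 243 higher after slow freezing, and 0 of the 9 synthetases were among them. The synthetase means then ran from -0.26 (LARS1) to 0.25 (AARS1), with 5 of 9 below 0 and adjusted p from 0.41 to 0.96. AARS1, MARS1, NARS1 and SARS1 turned positive and the other 5 stayed negative. Were the sign of replicate 2 turned, 7 of 9 means would be below 0 and 1 gene, MARS1, would be below 0 on every array.

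The median profile of the synthetases over replicates 1, 2 and 3 was -0.64, -0.13 and -0.068. The named genes outside the set with the closest values, by root mean square difference over the 3 arrays, were C16H19orf67 (0.02), FLVCR1 (0.036), GALM (0.043), ZDHHC6 (0.047) and MYL9 (0.048). FLVCR1, a membrane carrier, had ratios of -0.60, -0.10 and -0.10, and MYL9, a myosin light chain, had -0.61, -0.19 and -0.12. With 3 values per gene, such likeness is a description only.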

How the data were processed

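Total RNA of day 6 embryos was labelled and hybridised to 3 arrays with 2 channels each. The submitters' processing notes name Agilent Feature Extraction 10.10.1.1 as the image software. Scanner files of replicates 1 and 3 hold raw and processed intensities, the latter background-subtracted and dye-normalized per the file headers, and red over green as a log10 ratio with its error, which was converted to log2. The authors deposited a value table of log2 ratios for all 3 arrays, with scale, centring and direction unstated. Over 22818 probes with 1 spot it equalled frozen over vitrified in the scanner files to within 3e-06, and its column medians were -0.015, 0.021 and 0.017. No scanner file of replicate 2 was used. The table has 22865 rows, 26 of them controls; all 22839 others were well above background on both scanner arrays, and 0 were saturated.

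Probes were named by gene identifier, RefSeq transcript or symbol through a RefSeq table of the assembly mOryCun1.1. A further 385 tested probes took the name that other probes gave to their Ensembl transcript, and 8520 had no single name. The brightest probe stood for a gene. Ratios were tested against 0 with limma 3.58.1 (R 4.3.3), adjusted after Benjamini-Hochberg over all probes, at a threshold of 0.05, and joined in Python 3.11.15 with pandas 2.3.3. The fit was tested on simulated data. Named were all members, from each other list the 2 genes of smallest p (1 where under 4 were measured), and the 5 genes closest to the members' profile. A gene that this rule takes is not reported here. The members and lists were chosen with earlier results of these data known. Alternatives were other priors, a dye term, the sign of replicate 2, other probe rules, median centring, other background corrections, no filter on dim probes, and each array left out.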

Additional observations from a re-analysis of the deposited data

How the results depend on the processing

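With 3 arrays, 1 of them without scanner output, the precision is low. Probes past the limma threshold numbered 0 with all arrays, with a dye term, with an intensity trend and robust prior and with replicate 2 turned, and 0 to 796 when 1 array was left out. The members below 0 on every array numbered 4; they were 1 with replicate 2 turned, 2 with the mean or the median over all probes of a gene, and 2 on raw mean signals of replicates 1 and 3. The median of the members' means, -0.14, ran from -0.28 to -0.09 when 1 array was left out and was 0.007 on raw mean signals of replicates 1 and 3, all within the SD of 0.31 between the arrays' medians, which is set mostly by replicate 1. Signs of single genes changed more often; none was called, and the mean or median over probes was not tested. With replicate 2 turned, EPRS1 was 0.036 and LARS1 0.16. On raw mean signals, EPRS1 was 0.27, IARS1 0.038, LARS1 0.39, NARS1 0.007 and TARS1 0.055. With normexp and loess on replicates 1 and 3, which also leaves out replicate 2, LARS1 was 0.016 and SARS1 0.047. LARS1 was 0.02 with the mean or the median over probes, 0.11 on replicates 1 and 3 without the filter on dim probes, as without replicate 2 alone, and from -0.26 to 0.11 when 1 array was left out. Leaving out 1 array also gave a range of -0.35 to 0.25 for AARS1, -0.51 to 0.046 for MARS1, -0.28 to 0.12 for NARS1 and -0.61 to 0.03 for SARS1, the upper end without replicate 1. The cause of these changes was not tested. Each array is a ratio of 1 frozen and 1 vitrified sample, so the test of the ratios against 0 was already a paired analysis. List medians moved beyond the spread between arrays in 10 of 78 alternatives. That spread, the SD of the 3 array medians, ran from 0.016 for the stress response list to 0.47 for hypoblast markers. The count therefore depends on the list: hypoblast markers at -0.92 without replicate 1, against -0.58, did not count as moved. With replicate 2 turned, hypoblast markers were at -0.10, uterine markers at 0.027, the stress response list at -0.051, amino acid synthesis at -0.36 and transporters at -0.029. The stress response list was at 0.062, -0.014 and -0.058 without replicates 1, 2 and 3, uterine markers at -0.16 without replicate 3 and elongation factors at -0.10 without replicate 2.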
